A study of Mus musculus with 2 samples.

Results

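The genes described here are the interferon-stimulated genes, the sensors and transcription factors that act with them, and the p200 family of mouse embryonic fibroblasts (MEFs) with and without Malat1, a long noncoding RNA held in the nucleus. They were given as a list of 40 symbols. On the array 18193 genes had at least 1 probe set that the annotation pairs with that gene alone. Each symbol was matched to probe sets that the platform's annotation pairs with a single gene, which gave 57 probe sets for 36 of the 40 members. Ifi44, Isg15, Ifi205 and Ifi211 had no such probe set. The 6 probe sets that list a p200 member together with other genes were kept apart.

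The Malat1 knock-out sample and the wildtype sample were each MEFs of the C57BL/6 strain, prepared from embryos at day 13.5, cultured for 2 weeks and left untreated. Total RNA from each was hybridized to an Affymetrix Mouse430_2 array, 1 array per genotype. How the knock-out allele was made, and whether cells of several embryos were pooled, was not stated in the labels. With 1 array per genotype no difference has a replicate check, so no p-value is given and the precision is limited by the number of arrays. Values are log2 signals, a scale inferred from their range, and a difference is always knock-out minus wildtype.

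The arrays were first checked against their labels. The brightest Malat1 probe set read 4.53 in the knock-out and 9.80 in the wildtype, at least 20.6-fold lower in the knock-out. The X-inactivating RNA Xist read 11.49 in the knock-out and 4.50 in the wildtype, and the Y-linked gene Eif2s3y read 2.81 in the knock-out and 8.57 in the wildtype, so the sex of the cells and the genotype cannot be told apart. All 36 members with a probe set lie on autosomes, and the part of sex in their differences was not tested. All 10 fibroblast markers listed were at or above the median signal of both arrays. Among the brightest, Col1a2 read 14.43 in the knock-out and 14.58 in the wildtype, and Vim 14.30 in the knock-out and 14.25 in the wildtype. Others differed by 1.5-fold or more. Col1a1 read 11.76 in the knock-out and 12.71 in the wildtype, and Pdgfra 7.47 in the knock-out and 8.20 in the wildtype. Dcn was the higher in the knock-out, at 8.77 against 8.02 in the wildtype.

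Type I interferons act through a receptor with the chains Ifnar1 and Ifnar2, whose kinases activate transcription factors, Stat2 among them. A complex that holds Stat2 and Irf9 binds a DNA element called the interferon-stimulated response element (ISRE) in the promoters of antiviral genes. Interferon gamma acts through a different element, the gamma-activated sequence (GAS). Fibroblasts both make interferon after sensing viral RNA and respond to it. The p200 genes lie side by side in a cluster on mouse chromosome 1 and encode proteins with a DNA-binding HIN domain. Most of these proteins also carry a pyrin domain, through which Aim2 assembles an inflammasome on cytosolic DNA.

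The promoters of the p200 members are shown first because probe sets that list these clustered genes differed between the arrays in opposite directions. Sequences come from RefSeq, mouse build GRCm38.p6, in windows of 250 bases before to 50 bases after a transcription start site, which matched 35 of the 40 members. The ISRE was searched as GAAANNGAAA and the GAS as TTCNNNGAA, on both strands. The GAS letters read the same on both strands, and the motifs can overlap. Capitals mark the match, and where an ISRE lies on the other strand it reads TTTCNNTTTC. The lines below give the 250 bases before the start site of Ifi202b, with a GAS match and no ISRE match, and of Ifi205, with an ISRE match.
Ifi202b, chr1:173982845-173983094, minus strand: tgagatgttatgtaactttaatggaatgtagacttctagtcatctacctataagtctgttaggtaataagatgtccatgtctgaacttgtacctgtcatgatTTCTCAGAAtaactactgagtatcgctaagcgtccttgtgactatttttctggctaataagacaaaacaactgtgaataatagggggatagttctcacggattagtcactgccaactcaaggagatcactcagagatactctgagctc
Ifi205, chr1:174031756-174032005, minus strand: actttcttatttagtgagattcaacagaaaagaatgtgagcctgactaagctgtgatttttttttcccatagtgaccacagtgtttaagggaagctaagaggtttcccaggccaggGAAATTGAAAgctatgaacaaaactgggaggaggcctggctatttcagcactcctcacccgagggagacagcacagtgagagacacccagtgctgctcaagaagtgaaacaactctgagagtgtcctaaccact

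Shorter stretches around a match show how alike the other p200 promoters are, beside an Ifitm, an Ifit and a Gbp promoter and the GAS of Irf1.
Ifi211, chr1:173913064-173913093, minus strand: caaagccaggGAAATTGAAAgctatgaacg
Mndal, chr1:173880204-173880233, minus strand: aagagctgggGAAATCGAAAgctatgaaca
Ifi203, chr1:173942508-173942537, minus strand: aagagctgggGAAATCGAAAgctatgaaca
Ifitm2, chr7:140955988-140956017, minus strand: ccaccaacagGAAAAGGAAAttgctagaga
Ifit1, chr19:34640794-34640823, plus strand: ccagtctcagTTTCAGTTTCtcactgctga
Gbp2, chr3:142620594-142620623, plus strand: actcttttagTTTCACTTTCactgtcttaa
Irf1, chr11:53769914-53769942, plus strand: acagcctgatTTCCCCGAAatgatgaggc

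The stretches of Mndal and Ifi203 are the same letter for letter, and those of Ifi211 and Ifi205 share the match GAAATTGAAA. The match shown begins at position -36 from the start site in Mndal, -35 in Ifi203, -37 in Ifi211 and -134 in Ifi205. Mndal and Ifi205 each had a further ISRE match on the other strand. It begins at -54 from another start site of Mndal and at 24 after the start site of Ifi205. Aligned over the 250 bases before the start site, Mndal and Ifi203 had 97.5% identity over 239 aligned bases and Ifi211 and Ifi205 had 93.4% over 151. Ifi211 and Mndal had 66.4% over 220. Ifi202b and Aim2 aligned with none of the others over 100 bases or more.

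Over all matched members, 17 of 35 (48.6%) had an ISRE match in a promoter window, against 3.99% of the 27025 genes in the table. A GAS match was found for 10 of 35 (28.6%), against 9.55% of all genes. Members with and without a match are set side by side with no test. The 9 members with an ISRE match that were measured on both arrays had a median difference of -0.13, with 5 lower in the knock-out, and the 14 without had a median of -0.15, with 10 lower. The 10 measured members with a GAS match had a median of -0.20, with 9 lower, and the 13 without had a median of 0.00, with 6 lower. These are the values as deposited, where 59.8% of all genes measured on both arrays were lower, with a median of -0.05. Whether a match goes with a lower signal was not tested. A match is a description of letters and was not tested as a binding site.

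A probe set counted as measured at or above its array's median signal, 5.44 for the knock-out and 5.39 for the wildtype, and a gene was represented by its brightest probe set. Of the 36 members, 24 were measured on both arrays, Gbp2 on the wildtype array alone and 11 on neither array. The unmeasured members were Ifit1, Ifit3, Mx1, Mx2, Oasl2, Usp18, Irf7, Stat2, Aim2, Ifi204 and Mndal. The 11 make up 30.6% of the 36 members, close to the 34.6% of all 18193 genes that were measured on neither array.

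**Figure D1:**
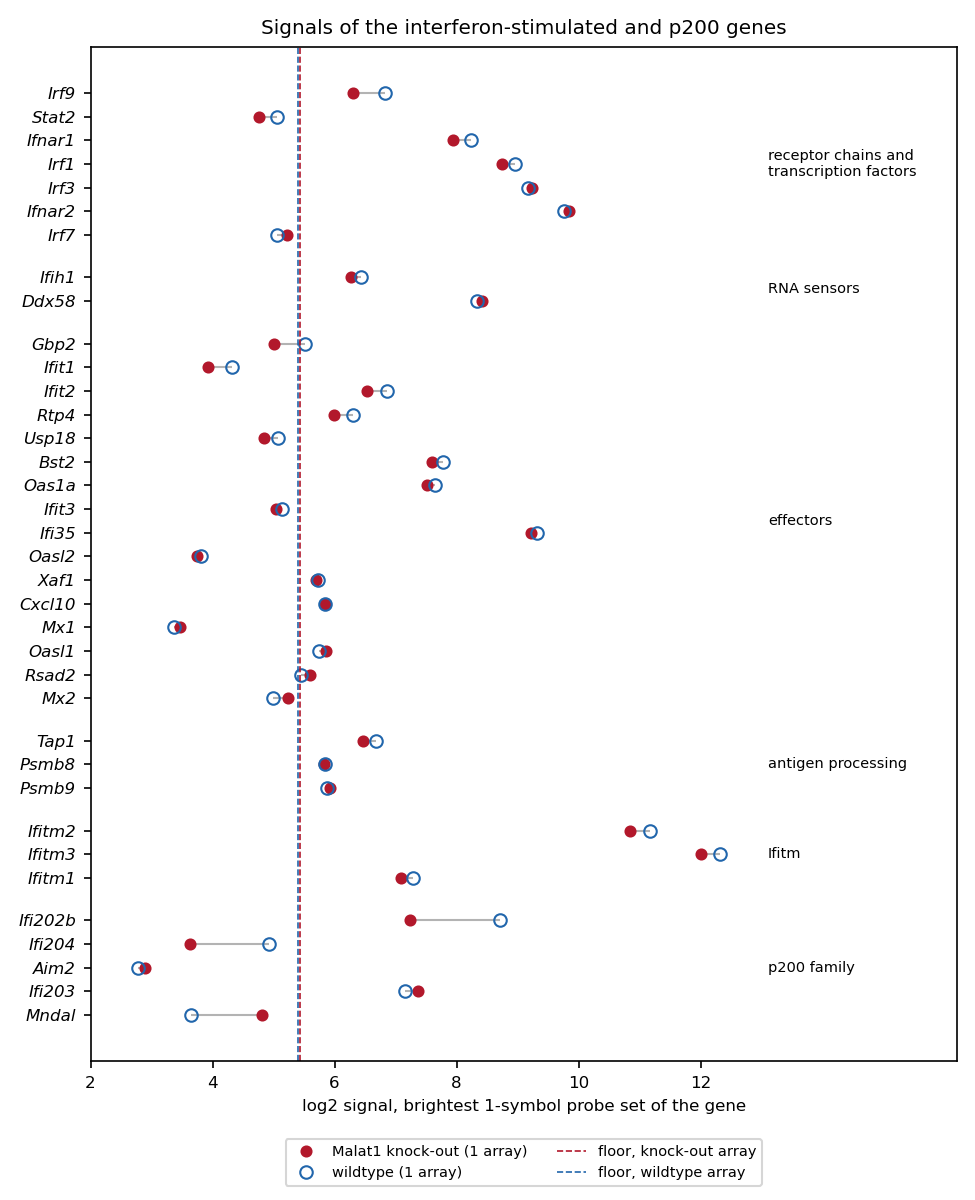
Log2 signal (horizontal axis) of the brightest 1-symbol probe set of the 36 members, grouped by role. Filled red points are the Malat1 knock-out array, open blue points the wildtype array (1 array each), and dashed lines are each array's median signal, used as the floor. Most pairs nearly coincide, and Ifi202b, Ifi204 and Mndal are the most widely separated, of which Ifi202b alone lies above the floors.

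Only 1 of the 24 members measured on both arrays differed by 1.5-fold or more, Ifi202b, against 2.44% of all 11294 genes measured on both arrays. As deposited, 16 of the 24 were lower in the knock-out (66.7%), 7 were higher and 1 was equal, against 59.8% of all measured genes lower and 39.2% higher. The median difference was -0.15 over the measured members and -0.05 over all measured genes. The spread among probe sets of the same gene, a pooled SD of 0.199 for their differences on the log2 scale, gives a yardstick within these arrays. By more than that SD, 10 members were lower (41.7%, against 22.9% of all genes) and 1 was higher (against 12.1%). After setting the median difference to 0, quantile normalization and loess centring, the lower members numbered 14, 17 and 17 of 24, against 47.6%, 44.8% and 47.3% of all genes. Those lower by more than the SD then numbered 7, 6 and 6, against 15.2%, 12.9% and 14.1% of all genes.

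Most markers of macrophages and other leukocytes were lower in the knock-out. Of the 19 markers 18 were measured on both arrays and 15 were lower (83.3%), with a median of -0.32, and Itgam was below both floors. Csf1r, Cd14 and Cd52 were higher in the knock-out. Over all genes measured on both arrays, 59.8% were lower and 39.2% higher. The summed linear signal of the 19 markers was 5680 in the knock-out and 6801 in the wildtype. Fibroblast markers were lower as well, 8 of 10 with a median of -0.36 and a summed signal of 84272 in the knock-out and 96514 in the wildtype. Endothelial markers went the other way, with all 5 of those measured on both arrays higher in the knock-out, a median of 0.41 and a summed signal over the 8 listed of 1610 in the knock-out and 1109 in the wildtype. Among them Emcn, a surface mucin of endothelial cells, read 9.00 in the knock-out and 7.53 in the wildtype, 2.77-fold higher in the knock-out, while Pecam1, Cdh5 and Tie1 were below both floors. The part of any of these lists in the members' differences was not tested. In RNA from a whole culture, fewer cells of a type and less RNA per cell cannot be told apart.

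**Figure D2:**
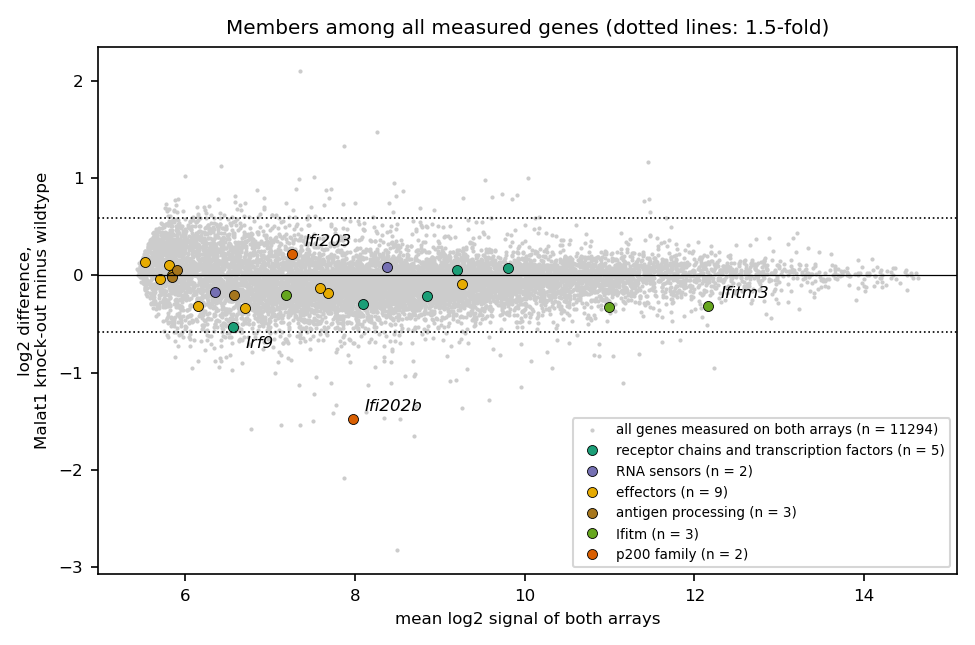
Log2 difference, Malat1 knock-out minus wildtype, against the mean log2 signal of both arrays for the 11294 genes measured on both (grey) and the 24 measured members (coloured by role). Dotted lines mark 1.5-fold. Ifi202b lies at -1.48, beyond the line, and the other members lie between the lines.

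The receptor chains and transcription factors stand at the head of the pathway and gave small differences. Irf9, the DNA-binding partner of Stat2, read 6.29 in the knock-out and 6.83 in the wildtype, a difference of -0.53 (1.45-fold lower in the knock-out). As deposited it was the second largest difference among the members measured on both arrays, and it ranged from -0.53 to -0.45 over the 4 scalings. With 64 added to linear values the Irf9 difference shrank to -0.32, close to that of Ifitm2. The receptor chain Ifnar1 read 7.95 in the knock-out and 8.24 in the wildtype, and Irf1, an interferon-induced activator, read 8.74 in the knock-out and 8.96 in the wildtype. Irf3, which switches on interferon genes after viral sensing, read 9.23 in the knock-out and 9.17 in the wildtype on its brightest probe set.

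Other probe sets of these genes were not always alike. The brightest probe set of the receptor chain Ifnar2 read 9.84 in the knock-out and 9.76 in the wildtype, the next 7.81 in the knock-out and 7.69 in the wildtype, and a dimmer one 6.31 in the knock-out and 6.57 in the wildtype. Ifnar2 is thus higher in the knock-out by 0.08 and 0.12 on 2 probe sets and lower on the third, with a difference of -0.26, and its mean over the 3 was -0.02. The second Irf3 probe set read 7.69 on both arrays, and the dimmer pair, measured in the wildtype alone, read 5.40 and 5.37 in the knock-out, against 5.61 and 5.56 in the wildtype. With the median over all 4 probe sets the Irf3 difference turned to -0.09. Stat2 was measured on neither array, at 4.76 in the knock-out and 5.06 in the wildtype, and neither was Irf7, the factor that amplifies interferon production, at 5.23 in the knock-out and 5.06 in the wildtype.

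The cytosolic sensors of viral RNA were close to equal. Ddx58, also called RIG-I, read 8.42 in the knock-out and 8.33 in the wildtype, and its second measured probe set read 6.05 in the knock-out and 6.00 in the wildtype. Ifih1, also called MDA5, read 6.26 in the knock-out and 6.43 in the wildtype. As deposited, both differences are smaller than the SD of 0.199 between probe sets of one gene. The brightest Ddx58 probe set was higher in the knock-out by 0.201 under quantile normalization, just beyond that SD, and by 0.192 under loess centring.

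Of 18 antiviral effectors and related induced genes, 9 were measured on both arrays, with 6 lower in the knock-out, 2 higher and Cxcl10 equal. The share lower, 66.7%, was near the 59.8% of all genes measured on both arrays. The median of the 9 was -0.09 and none reached 1.5-fold. Ifit2, which binds viral RNA and blocks its translation, read 6.53 in the knock-out and 6.87 in the wildtype, a difference of -0.33. Rtp4, a chaperone of membrane receptors, read 5.99 in the knock-out and 6.30 in the wildtype (-0.31). These were the only effectors measured on both arrays with a difference beyond the SD between probe sets, and a second, unmeasured Rtp4 probe set read 3.45 in the knock-out and 3.29 in the wildtype.

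The remaining measured effectors differed by less. Bst2, the tetherin that holds budding virus at the cell surface, read 7.59 in the knock-out and 7.78 in the wildtype. Oas1a, an oligoadenylate synthetase that activates the antiviral ribonuclease L, read 7.52 in the knock-out and 7.65 in the wildtype. Ifi35 was lower on all 3 of its probe sets, by differences of -0.09 to -0.06, and the sign of the dimmer pair turned under other scalings. Xaf1, an antagonist of an apoptosis inhibitor, read 5.69 in the knock-out and 5.72 in the wildtype.

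Higher in the knock-out by small amounts were Oasl1, a translational repressor of Irf7, at 5.86 in the knock-out and 5.75 in the wildtype, and Rsad2, the radical SAM enzyme viperin, at 5.60 in the knock-out and 5.46 in the wildtype. The other 2 Rsad2 probe sets, below the floor, were also higher in the knock-out. Cxcl10, an interferon-induced chemokine, read 5.84 on both arrays, and 119 genes measured on both arrays had equal deposited values.

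Gbp2, an interferon-induced guanylate-binding protein, read 5.00 in the knock-out and 5.52 in the wildtype, where it just passed the floor, so its signal was at least 1.06-fold lower in the knock-out. Its second probe set was below both floors at 4.02 in the knock-out and 5.19 in the wildtype. Both probe sets were lower in the knock-out under all 4 scalings. The RNA-binding Ifit1 and Ifit3 read 3.93 and 5.04 in the knock-out, against 4.31 and 5.15 in the wildtype. Usp18, the protease that removes Isg15 from its targets, and Oasl2, a synthetase-like protein, read 4.84 and 3.75 in the knock-out, against 5.08 and 3.81 in the wildtype. None of these reached the floor on either array. The antiviral GTPases Mx1 and Mx2 read 3.47 and 5.23 in the knock-out, against 3.37 and 4.98 in the wildtype. No fold is given for signals below the floor on both arrays. A probe set shared by Isg15, the ubiquitin-like modifier, and Gm9706 read 6.65 in the knock-out and 6.98 in the wildtype, and the share of each gene in it is unknown.

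The 3 antigen-processing genes of chromosome 17 stayed within a narrow range. The immunoproteasome subunits Psmb8 and Psmb9 read 5.83 and 5.93 in the knock-out, against 5.85 and 5.87 in the wildtype. Tap1, a subunit of the transporter that carries peptides into the endoplasmic reticulum, read 6.47 in the knock-out and 6.67 in the wildtype. Its other 3 probe sets were below both floors, and with the median over all 4 the Tap1 difference turned to 0.08. By the same median Psmb8 turned to 0.13 and Xaf1 to 0.07.

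The Ifitm genes encode membrane proteins that block the fusion of viruses with endosomes. The RNA signals of all 3 were lower in the knock-out, against 59.8% of all genes measured on both arrays. Ifitm3 read 12.00 in the knock-out and 12.32 in the wildtype, a difference of -0.32 (1.25-fold). Ifitm2 read 10.83 in the knock-out and 11.16 in the wildtype, a difference of -0.33 (1.25-fold). Ifitm1 read 7.08 in the knock-out and 7.28 in the wildtype, a difference of -0.20. All 3 kept their sign under the 4 scalings, Ifitm1 with a difference as small as -0.08. Each gene has 1 probe set.

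**Figure D3:**
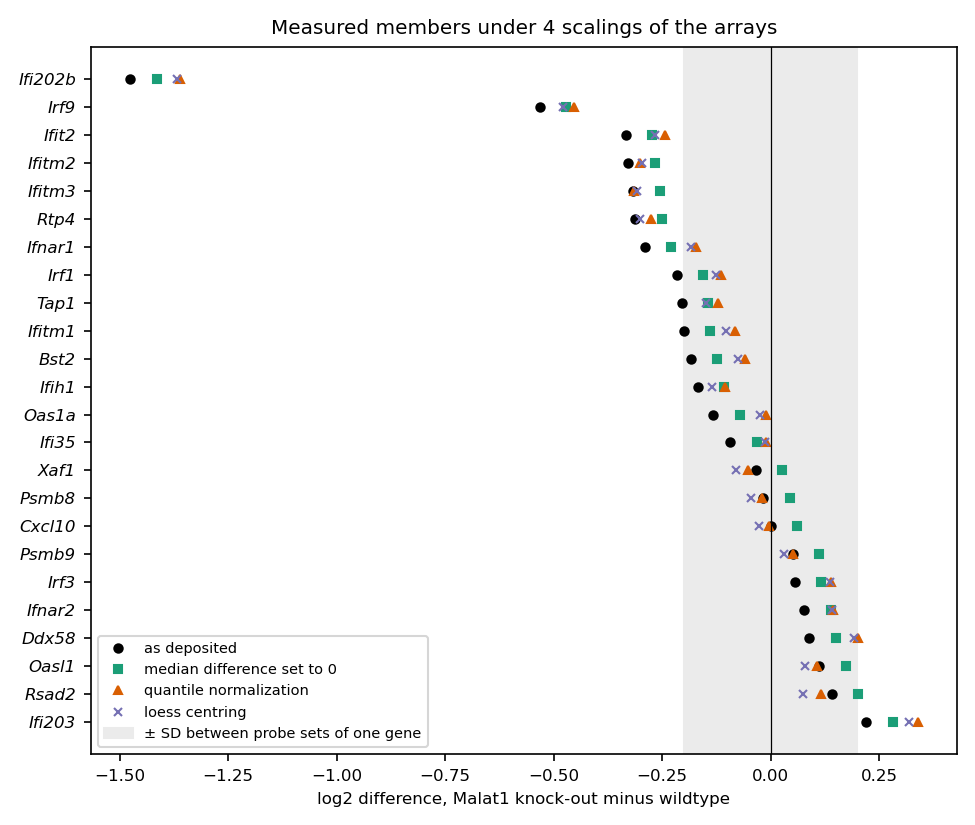
Log2 difference, Malat1 knock-out minus wildtype (horizontal axis), of the 24 members measured on both arrays, as deposited and under the other 3 scalings of the arrays. The grey band is the SD between probe sets of one gene, 0.199 to either side of 0. Ifi202b, Irf9, Ifit2, Ifitm2, Ifitm3 and Rtp4 lie to the left of the band under all 4 scalings and Ifi203 to its right.

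Over the 4 scalings 21 of the 24 measured members kept their sign, 14 of them lower and 7 higher in the knock-out. Psmb8, Xaf1 and Cxcl10, all within 0.08 of 0 under every scaling, did not.

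The p200 family gave the widest separation between the arrays. Ifi202b, whose protein binds DNA without a pyrin domain and antagonizes Aim2, read 7.23 in the knock-out and 8.71 in the wildtype, 2.78-fold lower in the knock-out. Genes at least 2-fold lower in the knock-out made up 0.266% of all genes measured on both arrays, and genes at least 2-fold higher 0.0708%. A second probe set, shared by Ifi202b and the gene model LOC100044068, read 6.70 in the knock-out and 8.43 in the wildtype, 3.31-fold lower in the knock-out. Both probe sets were clearly above the floor on both arrays, and the differences ranged from -1.48 to -1.36 and from -1.73 to -1.62 over the 4 scalings. Both are of the _s_at type, whose probes can match transcripts of several related genes.

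Of the p200 genes next to Ifi202b in chromosome order, Ifi203 alone was measured by a probe set of its own, and Ifi205 had none. Ifi203 read 7.37 in the knock-out and 7.15 in the wildtype. The difference of 0.22 was opposite in direction to that of Ifi202b and just beyond the SD of 0.199 between probe sets. Under the other scalings Ifi203 was higher in the knock-out by 0.28 to 0.34. Another 3 probe sets that list Ifi203 with a pseudogene and unnamed gene models were below both floors. They read between 2.84 and 2.98 in the knock-out and between 2.91 and 3.52 in the wildtype. All 3 were the lower in the knock-out, by differences of -0.04, -0.06 and -0.54.

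A probe set shared by Ifi211 and Ifi205 was higher in the knock-out. It read 7.24 in the knock-out and 5.26 in the wildtype, below the floor, so by this floor its signal was at least 3.60-fold higher in the knock-out. With 64 added to linear values the bound was 1.02 on the log2 scale. With the floor at each array's 75th percentile the probe set was below the floor on both arrays. Of all probe sets measured on at least 1 array, 0.0768% were at least 2-fold higher in the knock-out by a difference or a bound, and 0.354% at least 2-fold lower. This probe set is of the _x_at type, which can pick up related transcripts, and which of the genes it reports cannot be told. The alignment of Ifi211 and Ifi205 over 151 bases given above is of stretches before the start sites. It does not tell which transcript the probe set reports, and its part in the difference was not tested.

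A probe set that lists Mndal, Ifi211, Ifi205 and Ifi204 together read 5.87 in the knock-out and 5.49 in the wildtype, 1.30-fold higher in the knock-out. The 2 Mndal probe sets were below both floors, at 4.81 and 3.67 in the knock-out against 3.65 and 2.88 in the wildtype, so both were the higher in the knock-out. Ifi204, also below both floors, read 3.63 in the knock-out and 4.93 in the wildtype, so it was the lower in the knock-out. Aim2, the DNA sensor, read 2.89 in the knock-out and 2.78 in the wildtype, with no separation.

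**Figure D4:**
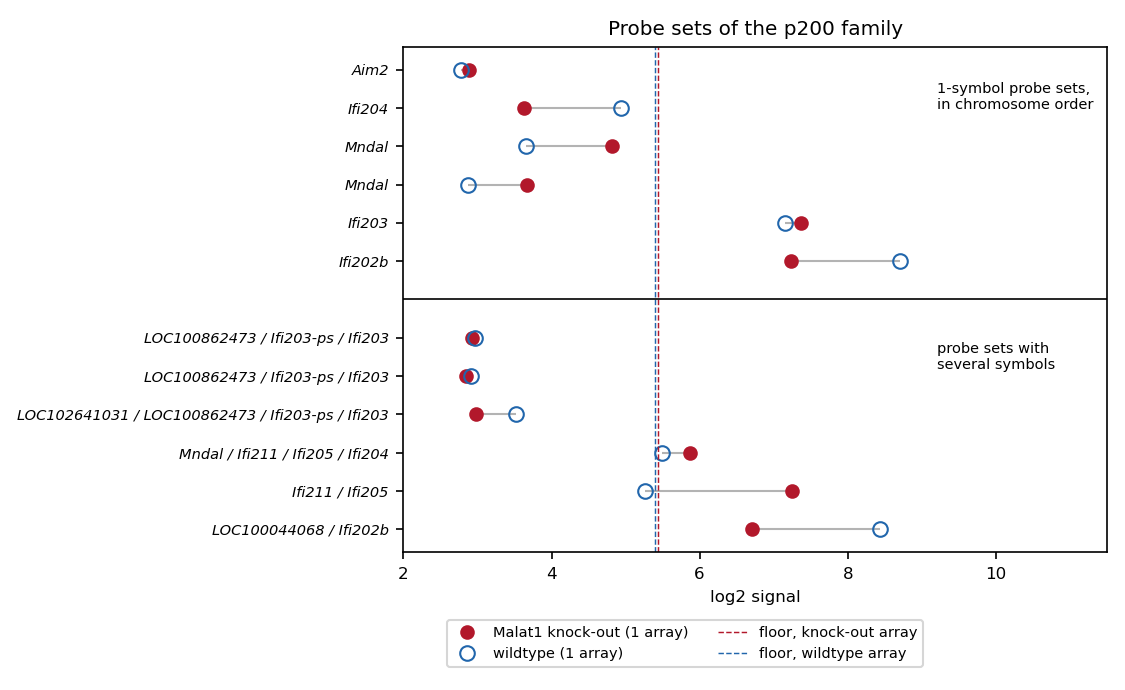
Log2 signal (horizontal axis) of every probe set that lists a p200 member, on the Malat1 knock-out array (filled red) and the wildtype array (open blue), 1 array each; the upper panel holds probe sets with 1 symbol in chromosome order and the lower panel those with several. Dashed lines are the floors. Both Ifi202b probe sets are lower in the knock-out (7.23 and 6.70, against 8.71 and 8.43 in the wildtype), and the one shared by Ifi211 and Ifi205 is higher in it (7.24, against 5.26 in the wildtype).

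In RefSeq's gene order the cluster runs from Aim2 at place 1 to Ifi205 at place 13, with Ifi204 at place 8, Mndal at 9, Ifi211 at 10, Ifi203 at 11 and Ifi202b at 12. Ifi203 and Ifi202b were the only genes of the cluster measured on both arrays by a probe set of their own. None of places 1 to 7 was measured on either array by such a probe set, so the position of a difference along the cluster cannot be read from these values. Without the p200 family, none of the 22 other members measured on both arrays reached 1.5-fold.

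A list of other interferon pathway genes gives the context of the members. Of 75 genes 68 had a probe set and 48 were measured on both arrays, with a median of -0.17. As deposited, 38 of the 48 were lower in the knock-out (79.2%) and 10 higher, against 59.8% and 39.2% of all measured genes. At least 1.5-fold lower were 4 of the 48, against 1.61% of all measured genes, and 1 was as much higher, against 0.832%. Under the other scalings 34, 31 and 31 of the 48 were lower, against 47.6%, 44.8% and 47.3% of all genes. The medians of the list were then -0.11, -0.08 and -0.09.

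The 4 genes at least 1.5-fold lower also had the largest differences of the list among genes measured on both arrays. Ifi27, an interferon-induced mitochondrial protein, read 8.14 in the knock-out and 8.81 in the wildtype, 1.60-fold lower in the knock-out. Tor3a, an interferon-induced torsin, read 6.85 in the knock-out and 7.52 in the wildtype. Lgals3bp, a secreted galectin-binding glycoprotein, read 7.03 in the knock-out and 7.67 in the wildtype, and Ly6e, a surface protein that limits coronavirus entry, 10.31 in the knock-out and 10.92 in the wildtype. Uba7, the activating enzyme for Isg15, was the 1 gene higher, at 7.16 in the knock-out and 6.56 in the wildtype, and was named after its value was seen.

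**Figure D5:**
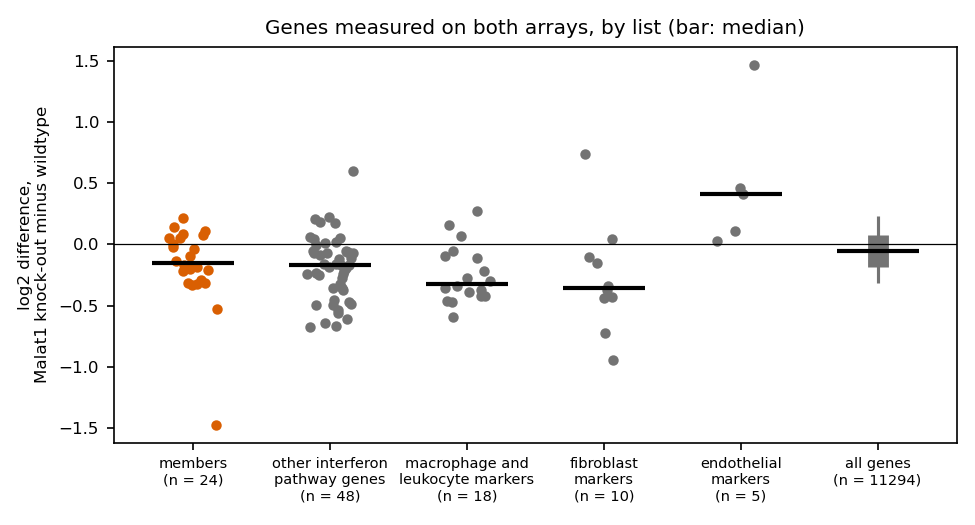
Log2 difference, Malat1 knock-out minus wildtype, of genes measured on both arrays, for the 24 members, 48 other interferon pathway genes, 18 macrophage and leukocyte, 10 fibroblast and 5 endothelial markers; each point is a gene and the bar is the median. For all 11294 genes the thick line covers the 25th to 75th percentile, the thin line the 10th to 90th percentile. The medians are -0.15 for the members, -0.17 for the pathway genes, -0.32 and -0.36 for the macrophage and fibroblast markers, 0.41 for the endothelial markers and -0.05 for all genes.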

How the data were processed

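The authors deposited 1 log2 value per probe set and array. The scale is inferred from the values, which ran from 2.09 to 14.71 on the knock-out array and from 2.13 to 14.69 on the wildtype array, because no label names the summarization, normalization or software. Per the labels' protocols, 100 ng of total RNA was labelled with biotin by a kit for 3′ in vitro transcription. Of 45037 probe sets besides 64 controls, 34945 had 1 gene symbol, 932 several and 9160 none in the platform's annotation, and all 36 members found matched a RefSeq gene ID.

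Differences, counts and medians were computed with Python 3.11.15, pandas 2.3.3 and statsmodels 0.14.6. Only the differences of probe sets and the scalings were checked on simulated data, with large differences planted in bright probe sets. Where 1 array alone measured a gene, the fold is a bound against the other array's floor. No test was run across genes. The members and lists were chosen with earlier results of these data known. Named by rule were every member, and the 4 other pathway genes measured on both arrays with the largest difference. Uba7, the only one of the list at least 1.5-fold higher, and the marker Emcn were named after their values were seen. Alternatives covered the scaling, the floor, the probe set that stands for a gene, probe set types, an offset of 64 on linear values and the fold counted. Leaving out the p200 family was added after seeing the data.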

Additional observations from a re-analysis of the deposited data

How the results depend on the processing

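No paired analysis was possible because there was only 1 array of each genotype. The number of members measured on both arrays and at least 1.5-fold different, 1 as deposited, became 3 with no floor, since Ifi204 and Mndal then count. It became 0 with the floor at the 75th percentile, where 8 members were measured on both arrays and 5 were lower, and 0 without probe sets of the _x_at and _s_at types, which remove both Ifi202b probe sets. It was 0 without the p200 family. The members' median stayed negative under each alternative run. No member past 1.5-fold changed sign. With the floor at the 75th percentile Ifi202b was measured in the wildtype alone, so the count leaves it out, but its bound was -1.08. With 64 added to linear values the Ifi202b difference was -1.17. Signals near the floor limit what can be said of 11 members.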

Other observations

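The genes on either side of the p200 cluster were examined after the values of the cluster had been seen. The 6 nearest genes measured on both arrays on each side, 12 in all, differed by -0.33 to 0.34. They were Cadm3, Tagln2, Igsf9, Slamf9, Pigm and Kcnj9 on the Aim2 side and Fh1, Opn3, Chml, Exo1, Cep170 and Sdccag8 on the Ifi205 side. The extremes were Kcnj9, a potassium channel subunit, at 5.81 in the knock-out and 5.47 in the wildtype, and Sdccag8, a centrosomal protein, at 7.16 in the knock-out and 7.48 in the wildtype. Pigm, a mannosyltransferase of glycolipid anchor synthesis, read 7.78 in the knock-out and 8.10 in the wildtype, and Opn3, an opsin found outside the eye, read 7.81 in the knock-out and 7.53 in the wildtype. The p200 genes outside the list that had a 1-symbol probe set, Ifi213, Ifi209 and Ifi207, were below both floors, at 3.46, 3.76 and 3.11 in the knock-out against 3.36, 3.37 and 3.01 in the wildtype.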
